A study of Mus musculus with 6 samples.

Results

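The genes described here encode enzymes, carriers and membrane proteins of the lysosome and the parts of its proton pump. They are 42 gene symbols, of which 21 were named one by one and 21 were taken because their symbol starts with Atp6v or Atp6ap. Of the 17042 genes in all 6 deposited tables, 41 are members. Atp6v0a4, a pump subunit, stood only in the 3 tables numbered 2, with 1 UMI in all, and enters only the promoter windows below. The RNA came from spinal cords of mice, measured by Drop-seq, which works in droplets and marks the RNA of each cell with a barcode and each captured molecule with a unique molecular identifier (UMI). The tested mice had the genotype SOD1-G93A, a mutant superoxide dismutase used to model amyotrophic lateral sclerosis, and received Necrostatin-1s, which inhibits the kinase RIPK1 (SOD1-Nec), or vehicle (SOD1-Veh). The others were wild type with vehicle (WT-Veh). Each of the 3 groups had 2 libraries. The sources used here do not give age, dose or route, nor do they state whether the libraries of a group came from separate animals, so p-values measure only the spread between these libraries.

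Lysosomes are acidic compartments that break down proteins, lipids and sugars taken up by a cell or delivered by autophagy. The acid is made by the vacuolar ATPase, in which a cytosolic V1 part splits ATP and a membrane part, V0, moves protons into the lumen. Soluble hydrolases need that acid, cofactors such as saposins present lipids to them, and heavily glycosylated membrane proteins line the inner face. Microglia, the resident macrophages of the cord, clear debris and dying cells through this system. Transcription factors of the TFEB family raise many of its genes through E-box motifs in their promoters, grouped as the CLEAR network.

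Promoter windows of RefSeq on build GRCm38.p6, from 250 bases before to 50 bases after a transcription start, were matched by symbol to 33 of the 42 members, with 38 windows in all. The 3 printed here belong to Cd68, the 1 member whose RNA passed a test between groups, and to Lamp1 and Atp6v0b, the members with more than 1 match to the E-box core. Capitals mark CACGTG, that core, and TGAGTCA, the site shared by AP-1 and Maf factors, on either strand. Cd68 lies at chr11:69666121-69666420 (minus strand), Lamp1 at chr8:13158911-13159210 (plus strand) and Atp6v0b at chr4:117887280-117887579 (minus strand), and each is written 5′ to 3′ along its gene.
Cd68: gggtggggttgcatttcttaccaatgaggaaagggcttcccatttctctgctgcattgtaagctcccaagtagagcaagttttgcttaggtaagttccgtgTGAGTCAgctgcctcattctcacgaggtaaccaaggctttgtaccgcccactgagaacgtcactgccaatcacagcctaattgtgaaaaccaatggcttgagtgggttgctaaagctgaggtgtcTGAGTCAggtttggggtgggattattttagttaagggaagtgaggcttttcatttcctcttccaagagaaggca
Lamp1: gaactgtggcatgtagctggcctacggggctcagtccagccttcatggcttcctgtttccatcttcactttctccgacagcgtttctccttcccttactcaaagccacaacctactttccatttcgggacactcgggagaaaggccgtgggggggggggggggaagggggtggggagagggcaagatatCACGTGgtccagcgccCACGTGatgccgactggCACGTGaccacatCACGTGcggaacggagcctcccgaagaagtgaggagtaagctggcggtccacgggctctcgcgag
Atp6v0b: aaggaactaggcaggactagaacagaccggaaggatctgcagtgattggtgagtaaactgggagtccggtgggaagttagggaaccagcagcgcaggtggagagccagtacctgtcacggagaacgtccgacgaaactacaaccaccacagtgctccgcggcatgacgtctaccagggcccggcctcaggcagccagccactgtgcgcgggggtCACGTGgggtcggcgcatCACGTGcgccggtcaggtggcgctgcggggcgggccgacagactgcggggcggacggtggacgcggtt

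CACGTG stood in 7 of the 38 member windows, 18.4%, against 7.15% of all 32851 RefSeq windows. The longer CLEAR element, the same core with GT before it and AC after it, stood in 0 of the 38 member windows and in 0.326% of all windows. The windows with the core belonged to Atp6v0b, Atp6v0d1, Atp6v0e, Atp6v1a, Glb1, Lamp1 and Lgmn. Lamp1 held 4 matches and Atp6v0b held 2, all within 61 bases before the start. TGAGTCA, or its reverse complement, stood in 5 of the 38 windows (Cd68, Glb1, Laptm4a, Neu1 and Psap), 13.2%, against 5.20% of all windows. The Cd68 window held it at 2 places and had no CACGTG. That core is its own reverse complement, so a match counts once for both strands. The matches describe these letters in these windows and say nothing of binding.

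The tables held 1508618 to 1767205 UMIs and 2788 to 3900 barcodes per library. Barcodes with at least 200 genes and at most 20% mitochondrially encoded UMIs numbered 3360, and 3331 cells remained after 29 doublets marked by Scrublet were removed, 395 to 791 per library with a median of 524 to 727 UMIs. Any 2 libraries shared 4 to 9 barcodes. Clustering gave 20 clusters, of which 18 were named from marker genes into 15 classes. Every class name below means cells that resemble that type by such markers. Sod1 took 4137 to 5387 CPM (counts scaled to a common library total, in edgeR's CPM unit) over all barcodes in the 4 SOD1-G93A libraries and 179 to 213 CPM in the wild-type libraries. Skeletal muscle cells were found only in the SOD1-Veh libraries, and 162 of the 254 neurons came from WT-Veh 2.

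Member RNA was most concentrated in microglia. The 41 members took 134 UMIs per 10,000 in the 636 microglia (exact Poisson 95% interval 130 to 137, counting error only), 92.8 in monocytes, 66.3 in oligodendrocytes and 60.1 in oligodendrocyte precursors. The share was lower in neutrophils (37.1), B cells (35.3) and neurons (23.5), and erythroid cells had 13. Single libraries ran from 119 to 149 in microglia and from 82.9 to 110 in monocytes, so the ranges of microglia and monocytes did not overlap, and both lay above the 32.5 to 44.5 of neutrophils in every library. Microglia held 16.0% of the UMIs of retained cells and gave 38.6% of the member UMIs. Endothelial cells had 75.0 per 10,000, but that class also carried microglial RNA: C1qa, a complement gene of microglia, was at 15.6 per 10,000 there, at 34.8 in microglia, and between 0 and 1.69 in every other class. The part of that RNA in the endothelial values was not tested. The classes were clustered on RNA that included the members, so their levels are a description without a test.

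**Figure D1:**
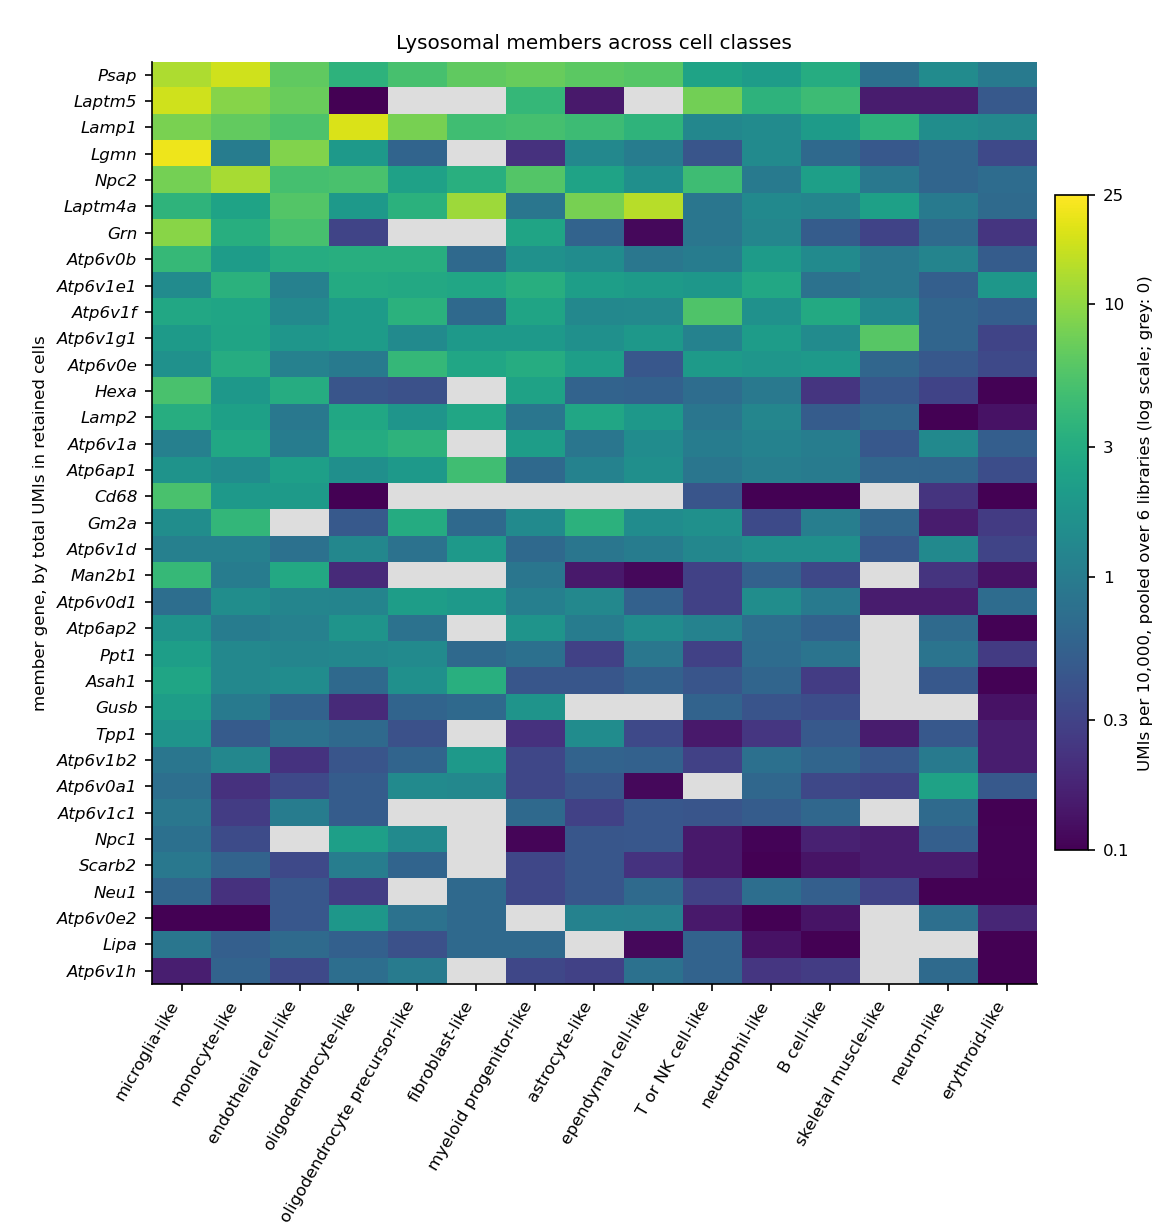
UMIs per 10,000 (colour, log scale, grey for 0) of the 35 members with at least 60 UMIs in retained cells (rows) in the 15 named classes (columns, ordered by the summed level of all members), pooled over 6 libraries. Lgmn, Cd68, Hexa, Man2b1 and Grn are brightest in microglia, Lamp1 in oligodendrocytes and Psap and Npc2 in monocytes. Laptm4a is brightest in ependymal cells, where SOD1-Nec 1 gave 53931 of the 89124 UMIs. The Atp6v rows differ less between classes.

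The enzymes and membrane proteins were most concentrated in microglia, whereas the pump was at similar levels in microglia, monocytes and oligodendrocytes. The 21 enzymes, carriers and membrane proteins took 112 UMIs per 10,000 in microglia, 68.5 in monocytes and 41.9 in oligodendrocytes. The 20 pump subunits and accessories took 21.7 in microglia, 24.3 in monocytes, 24.4 in oligodendrocytes, 29.2 in oligodendrocyte precursors and 18.8 in neutrophils. The precursors were only 51 cells, 5 to 13 per library, and their pump level ran from 15.8 in WT-Veh 2 to 40.8 in SOD1-Veh 2. Erythroid cells had the lowest pump level of the named classes, 6.62 per 10,000.

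Among 35 members with at least 60 UMIs, and 14 named classes with at least 50000 UMIs, 13 members were highest in microglia, 5 in monocytes, 5 in oligodendrocytes, 4 in oligodendrocyte precursors and 2 in endothelial cells. Each of the other 6 was highest in a class of its own. Lgmn, which encodes legumain, a protease that cuts after asparagine, had 21.9 UMIs per 10,000 in microglia, 8.70 in endothelial cells, 1.98 in oligodendrocytes, 1.02 in monocytes and 0.667 in B cells. Microglial libraries held 16.6 to 26.2 of it and monocyte libraries 0.535 to 1.24, with no overlap. Microglia gave 79.7% of all Lgmn UMIs and 75.2% of all Cd68 UMIs. Cd68, a heavily glycosylated protein of macrophage lysosomes, had 5.07 per 10,000 in microglia, 2.00 in monocytes and 0 to 0.433 in the other named classes apart from endothelial cells (2.03). In astrocytes its count was 0 of 68451 UMIs, which allows up to 0.438 per 10,000.

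Microglia also gave 52.4 to 65.7% of the UMIs of Grn, Man2b1, Hexa, Laptm5 and Gusb. Grn encodes progranulin, a secreted and lysosomal protein, Man2b1 a mannosidase, Hexa the alpha chain of hexosaminidase, Gusb beta-glucuronidase, and Laptm5 a lysosomal membrane protein of blood and immune cells. Laptm5 was at 16.9 per 10,000 in microglia, 9.27 in monocytes and 7.65 in T or NK cells.

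Monocytes led for the lipid cofactors. Psap, the precursor of the saposins, was at 16.7 per 10,000 in monocytes and 12.7 in microglia, but single libraries overlapped, with 12.9 to 23.5 in monocytes and 8.08 to 19.1 in microglia. Npc2, which hands cholesterol to the membrane protein NPC1, was at 12.2 in monocytes and 7.87 in microglia, and the libraries did not overlap (9.73 to 16.4 against 6.48 to 8.78). Gm2a, the activator of ganglioside breakdown, was at 3.86 in monocytes and 3.51 in astrocytes.

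Oligodendrocytes held the highest Lamp1, a major lining protein of the lysosome, at 18.1 per 10,000 against 8.27 in microglia. They also led for Npc1, the cholesterol exporter (2.25 against 0.775 in microglia), and for Scarb2, the carrier of glucocerebrosidase (1.05 against 0.914, from 27 and 46 UMIs). Laptm4a, a small membrane protein of endosomes and lysosomes, was at 13.8 in ependymal cells, 8.03 in astrocytes and 3.60 in microglia. The ependymal value rests largely on 1 library, as SOD1-Nec 1 gave 17 of the 57 cells and 53931 of the 89124 UMIs.

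Within the pump, isoforms were highest in different classes, on low counts. Atp6v0a1, the form of the V0 a subunit found at nerve terminals, was at 2.42 per 10,000 in neurons (32 UMIs) and 0.755 in microglia. Atp6v0e2, a variant of the small e subunit, was at 1.86 in oligodendrocytes and had 2 UMIs in all microglia, whereas Atp6v0e was at 3.97 in oligodendrocyte precursors and 1.65 in microglia. Atp6v1g1 was at 5.98 in skeletal muscle and 2.05 in microglia, and Atp6v1g2, the brain form of that V1 subunit, had 44 UMIs in all retained cells, 9 of them in neurons. Atp6v0c, the proton-carrying ring subunit, had only 13 UMIs. RefSeq lists the pseudogenes Atp6v0c-ps1 and Atp6v0c-ps2, so reads of that gene may have been lost to or shared with near copies, and its level is uncertain. Atp6v0d2 and Atp6ap1l had 2 UMIs each and none in microglia.

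**Figure D2:**
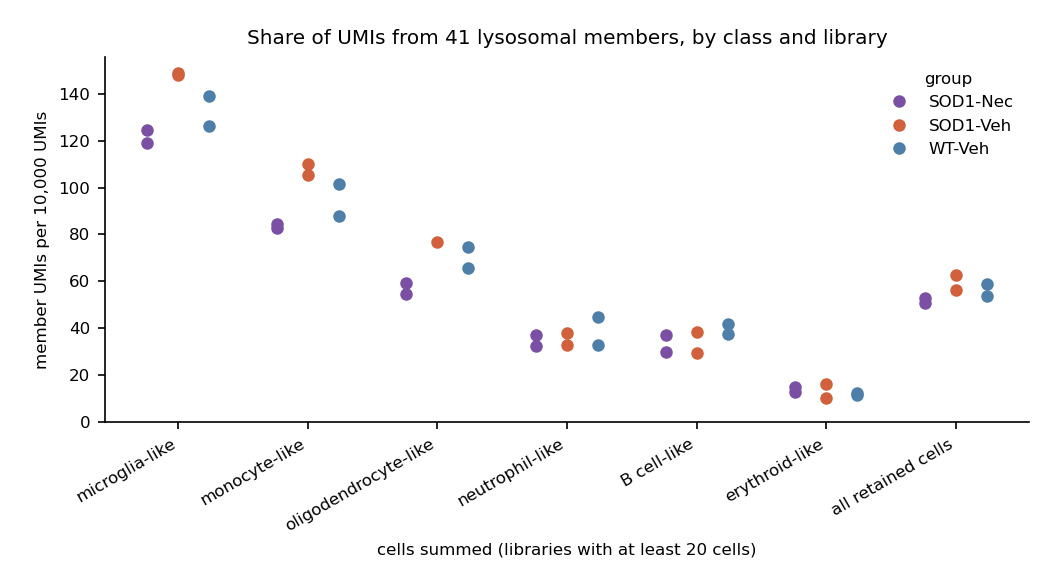
UMIs of the 41 members per 10,000 UMIs (vertical axis) in 6 classes and in all retained cells, 1 point per library with at least 20 cells, coloured by group. Microglia lie at 119 to 149 in every library, above monocytes at 82.9 to 110, and erythroid cells lie lowest.

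The members' summed share was lowest in the SOD1-Nec libraries in microglia, monocytes and oligodendrocytes. In microglia it was 119 and 125 UMIs per 10,000 in the SOD1-Nec libraries, 148 and 149 in the SOD1-Veh libraries and 139 and 126 in the WT-Veh libraries. Monocytes had 82.9 and 84.4 in SOD1-Nec, 110 and 105 in SOD1-Veh and 102 and 88.0 in WT-Veh. Oligodendrocytes had 54.5 and 59.4 in SOD1-Nec, 68.8 and 76.8 in SOD1-Veh (17 and 29 cells) and 74.6 and 65.7 in WT-Veh. In each of these 3 classes the SOD1-Nec pair did not overlap with either other group. Neutrophils had 32.5 and 37.0 in SOD1-Nec, 37.7 and 32.9 in SOD1-Veh and 44.5 and 32.8 in WT-Veh. B cells had 29.6 and 36.9 in SOD1-Nec, 29.4 and 38.2 in SOD1-Veh and 41.7 and 37.5 in WT-Veh. Erythroid cells had 12.7 and 14.8 in SOD1-Nec, 16.2 and 9.97 in SOD1-Veh and 11.2 and 12.3 in WT-Veh. In neutrophils, B cells and erythroid cells the SOD1-Nec pair overlapped with SOD1-Veh. Against WT-Veh it overlapped in neutrophils, lay below in B cells and lay above in erythroid cells. These sums are descriptions, with no test over the members. Sums over a class do not separate fewer cells with a transcript from less of it per cell, and which of these held was not tested.

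RNA of other cells in the microglia differed between the groups, in both directions. Haemoglobin took 4.65 and 3.22% of microglial UMIs in SOD1-Nec, 0.276 and 0.521% in SOD1-Veh and 0.994 and 1.63% in WT-Veh. With haemoglobin left out of the total, microglia had 125 and 129 member UMIs per 10,000 in SOD1-Nec, 148 and 150 in SOD1-Veh and 141 and 128 in WT-Veh, so SOD1-Nec stayed below SOD1-Veh but overlapped with WT-Veh. In monocytes the same values were 85.0 and 86.8 in SOD1-Nec, 111 and 106 in SOD1-Veh and 105 and 89.3 in WT-Veh, and in oligodendrocytes 56.2 and 62.3 in SOD1-Nec, 68.9 and 77.1 in SOD1-Veh and 75.3 and 66.3 in WT-Veh, so there the SOD1-Nec pair remained below both other groups. The 10 oligodendrocyte markers summed to 121 and 131 per 10,000 in SOD1-Nec microglia, 95.4 and 96.2 in SOD1-Veh and 85.1 and 60.3 in WT-Veh, all 10 with a UMI. The 12 microglial markers summed to 189 and 199 in SOD1-Nec microglia, 237 and 238 in SOD1-Veh microglia and 292 and 305 in WT-Veh microglia. Border macrophage markers were at 0 to 0.499 per 10,000, with Cd163, Lyve1 and Cbr2 at 0, and the 8 monocyte markers reached 1.10 and 1.30 in SOD1-Nec, 0.353 and 0.711 in SOD1-Veh and 0.515 and 0.568 in WT-Veh. The 10 astrocyte markers summed to 27.2 and 24 in SOD1-Nec, 15.4 and 19.5 in SOD1-Veh and 21.6 and 17.6 in WT-Veh. The 11 neutrophil markers summed to 4.52 and 2.60 in SOD1-Nec, 3.88 and 7.4 in SOD1-Veh and 17.5 and 6.71 in WT-Veh, with Ly6g at 0. The 11 neuron markers summed to 4.76 and 6.69 in SOD1-Nec, 2.23 and 2.85 in SOD1-Veh and 7.72 and 11 in WT-Veh, all 11 with a UMI. The 10 skeletal muscle markers summed to 0.244 and 0.299 in SOD1-Nec, 1.76 and 3.27 in SOD1-Veh and 0.257 and 0.455 in WT-Veh, with Atp2a1 at 0. Microglia also differed in depth between the groups. Their median was 519 and 476 UMIs per cell in SOD1-Nec, 814 and 784.5 in SOD1-Veh and 596 and 703 in WT-Veh. The part of these RNAs and of depth in the results that follow was not tested, beyond the values given.

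SOD1-Veh was compared with WT-Veh to ask which members differ with the mutant SOD1 under vehicle. In microglia Cd68 rose, and no other member passed the test. Cd68 had 685 and 609 CPM in the SOD1-Veh libraries, against 321 and 333 CPM in the WT-Veh libraries, from 60 and 42 against 25 and 30 UMIs. Both SOD1-Veh libraries lay above both WT-Veh libraries. The log2 fold change was 0.98 ± 0.29 (SE), with an adjusted p of 0.0445 by edgeR's quasi-likelihood test over 1552 genes, and 25 members were tested after the filter on low counts. Of all genes tested, 2.26% were called, so 1 call among 25 members is near that background. The call was lost by DESeq2 (adjusted p 0.562), by edgeR without the filter on low counts (0.265), with libraries scaled without haemoglobin, mitochondrial and Sod1 UMIs (0.0676), and with any 1 of the 6 libraries left out (0.0529 to 0.317). At a minimum of 400 genes per barcode the log2 fold change was 0.74 with an adjusted p of 0.440 by edgeR.

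The membrane proteins other than Cd68 did not pass. Lamp1 differed little within groups, with 1004 and 1001 CPM in SOD1-Veh and 707 and 699 CPM in WT-Veh, and its log2 fold change of 0.51 ± 0.24 had an adjusted p of 0.399 by edgeR. Lamp2, its paralogue and a receptor of chaperone-mediated autophagy, had 297 and 319 CPM in SOD1-Veh and 360 and 300 CPM in WT-Veh, which overlap. Laptm5 had 1723 and 1726 CPM in SOD1-Veh and 2095 and 1809 CPM in WT-Veh, and Laptm4a had 308 and 290 CPM in SOD1-Veh against 424 and 322 CPM in WT-Veh. For both Laptm genes the SOD1-Veh libraries were the lower pair, with log2 fold changes of −0.18 ± 0.22 for Laptm5 and −0.31 ± 0.33 for Laptm4a, neither of which passed.

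Progranulin and the proteases gave no call. Grn had 959 and 1378 CPM in SOD1-Veh and 874 and 744 CPM in WT-Veh, with a log2 fold change of 0.52 ± 0.24 and an adjusted p of 0.388 by edgeR. The groups did not overlap, but the SOD1-Veh libraries lay further apart than the groups' nearest values. Lgmn had 2328 and 2668 CPM in SOD1-Veh and 2520 and 2264 CPM in WT-Veh, which overlap (0.06 ± 0.21). Tpp1, a tripeptidyl peptidase, had 274 and 160 CPM in SOD1-Veh and 154 and 189 CPM in WT-Veh.

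None of the sugar-cleaving enzymes passed the test. Hexa had 571 and 522 CPM in SOD1-Veh and 488 CPM in both WT-Veh libraries, a log2 fold change of 0.17 ± 0.28. Man2b1 had 399 and 522 CPM in SOD1-Veh and 437 and 355 CPM in WT-Veh. Gusb had 240 and 218 CPM in SOD1-Veh and 193 and 111 CPM in WT-Veh, without overlap, at 0.61 ± 0.42 and an adjusted p of 0.633 by edgeR.

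The lipid-handling members Psap, Npc2, Asah1, Gm2a and Ppt1 overlapped between SOD1-Veh and WT-Veh. Psap had 1849 and 1262 CPM in SOD1-Veh and 1517 and 977 CPM in WT-Veh. Npc2 had 719 and 783 CPM in SOD1-Veh and 810 and 633 CPM in WT-Veh. Asah1, an acid ceramidase, had 251 and 203 CPM in SOD1-Veh and 334 and 178 CPM in WT-Veh, and Gm2a had 171 and 116 CPM in SOD1-Veh and 64 and 178 CPM in WT-Veh. Ppt1, which removes palmitate from proteins, had 183 and 247 CPM in SOD1-Veh and 244 and 255 CPM in WT-Veh.

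No pump subunit passed the test. Atp6v1g1, a stalk subunit of V1, had 263 and 290 CPM in SOD1-Veh and 116 and 178 CPM in WT-Veh, without overlap, and its log2 fold change of 0.88 ± 0.41 had an adjusted p of 0.391 by edgeR. Atp6v1e1, another stalk subunit, had 68 and 160 CPM in SOD1-Veh and 206 and 166 CPM in WT-Veh (−0.75 ± 0.50). Atp6v0b, the best-counted pump member in microglia, had 251 and 508 CPM in SOD1-Veh and 476 and 522 CPM in WT-Veh, so the SOD1-Veh libraries lay far apart. Atp6v1f had 365 and 247 CPM in SOD1-Veh and 334 and 211 CPM in WT-Veh, and Atp6v0e 148 and 189 CPM in SOD1-Veh and 244 and 100 CPM in WT-Veh.

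The accessory proteins of the pump overlapped between these groups. Atp6ap1 had 194 and 218 CPM in SOD1-Veh and 154 and 211 CPM in WT-Veh. Atp6ap2, also known as the prorenin receptor, had 171 and 174 CPM in SOD1-Veh and 103 and 233 CPM in WT-Veh. Of the 41 members, 23 had at least 60 microglial UMIs, 16 had 2 to 56 and Atp6v0d2 and Atp6ap1l had 0.

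Of the 25 members tested in this comparison, 17 had a positive and 8 a negative log2 fold change, and the median was 0.17, against 0.03 over all genes tested. That median was 0.04 without the second SOD1-Veh library, 0.30 without the first WT-Veh library, within 0.01 of 0 at a minimum of 400 genes per barcode and 0.38 in the Ctsd-led cluster described below, and these last values are the ends of its range over the alternatives. The 9 tested pump members had a median of 0.15 and the 16 tested enzymes and membrane proteins 0.19. Cd68, Grn, Lamp1 and Atp6v1g1 had an unadjusted p below 0.05 by edgeR, and DESeq2 called 0 members, with 1 at an unadjusted p below 0.05. Both SOD1-Veh libraries lay above both WT-Veh libraries for 7 members and below them for 3, where 21.1% and 20.3% of all genes did so.

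**Figure D3:**
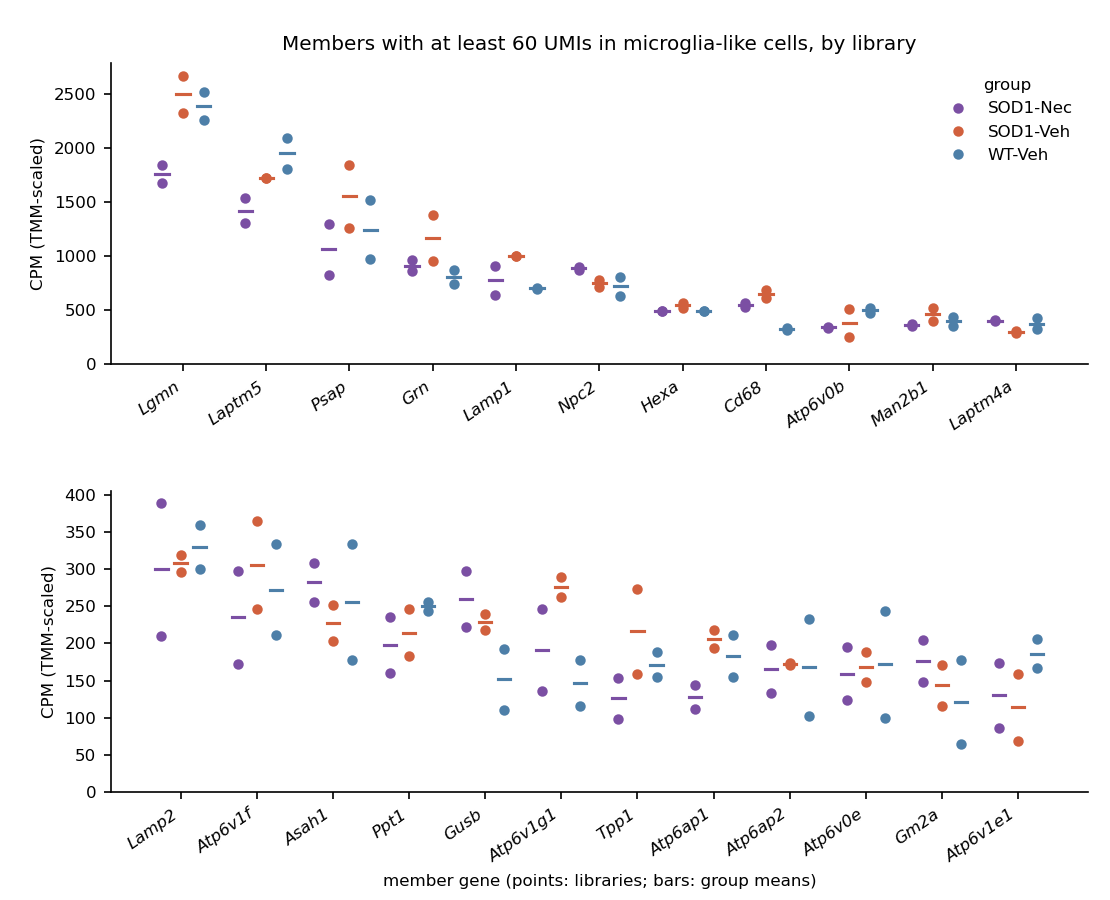
TMM-scaled CPM (vertical axis) of the 23 members with at least 60 UMIs in microglia (horizontal axis, in 2 panels with separate scales), 1 point per library and a bar at each group mean. Cd68 lies at 531 and 563 in SOD1-Nec, 685 and 609 in SOD1-Veh and 321 and 333 in WT-Veh, and Lgmn lies at 1678 and 1844 in SOD1-Nec, below all libraries of the other groups.

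SOD1-Nec was compared with SOD1-Veh to ask which members differ with Necrostatin-1s in mutant mice. In microglia no member passed edgeR's test, and 0 of 25 were called, where 3.41% of all genes were. Lgmn and Psap had an unadjusted p below 0.05, and DESeq2 called 0 members, with 1 at an unadjusted p below 0.05. Lgmn had 1678 and 1844 CPM in SOD1-Nec and 2328 and 2668 CPM in SOD1-Veh, without overlap, and its log2 fold change was −0.50 ± 0.21 (adjusted p 0.237 by edgeR). Psap had 1296 and 830 CPM in SOD1-Nec and 1849 and 1262 CPM in SOD1-Veh, which overlap, with −0.57 ± 0.24 (adjusted p 0.212 by edgeR). Its log2 fold change was −0.21 without the second SOD1-Nec library and −0.20 without the first SOD1-Veh library.

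Tpp1, Grn, Lamp1 and Laptm5 also had negative log2 fold changes, none past the test. Tpp1 had 99 and 154 CPM in SOD1-Nec and 274 and 160 CPM in SOD1-Veh (log2 fold change −0.78 ± 0.44). Grn had 963 and 860 CPM in SOD1-Nec and 959 and 1378 CPM in SOD1-Veh (−0.35 ± 0.24), the nearest libraries of the groups being almost equal. Lamp1 had 642 and 912 CPM in SOD1-Nec and 1004 and 1001 CPM in SOD1-Veh (−0.36 ± 0.24), and Laptm5 1308 and 1536 CPM in SOD1-Nec and 1723 and 1726 CPM in SOD1-Veh (−0.27 ± 0.22).

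Cd68 had 531 and 563 CPM in SOD1-Nec and 685 and 609 CPM in SOD1-Veh, with a log2 fold change of −0.24 ± 0.26 and an adjusted p of 0.767 by edgeR. The groups did not overlap, but the gap between them was smaller than the spread of the SOD1-Veh libraries. At a minimum of 400 genes per barcode the sign turned, to 0.43. Hexa, with 494 and 492 CPM in SOD1-Nec and 571 and 522 CPM in SOD1-Veh, and Man2b1, with 370 and 359 CPM in SOD1-Nec and 399 and 522 CPM in SOD1-Veh, were also the lower pair in SOD1-Nec.

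Of the 25 tested members, Npc2, Asah1 and Laptm4a were those with both SOD1-Nec libraries above both SOD1-Veh libraries. Npc2 had 876 and 901 CPM in SOD1-Nec and 719 and 783 CPM in SOD1-Veh (log2 fold change 0.25 ± 0.24). Asah1 had 309 and 256 CPM in SOD1-Nec and 251 and 203 CPM in SOD1-Veh, and Laptm4a had 407 and 399 CPM in SOD1-Nec and 308 and 290 CPM in SOD1-Veh (0.43 ± 0.32). None of the 3 passed the test.

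Of the 9 tested pump members, 8 had a negative log2 fold change and 0 passed. Atp6ap1 had 111 and 143 CPM in SOD1-Nec and 194 and 218 CPM in SOD1-Veh (−0.67 ± 0.44, adjusted p 0.569 by edgeR). Atp6v1g1 had 136 and 246 CPM in SOD1-Nec and 263 and 290 CPM in SOD1-Veh. Atp6v0b had 346 and 338 CPM in SOD1-Nec and 251 and 508 CPM in SOD1-Veh, so the SOD1-Nec pair lay inside the SOD1-Veh range.

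Over all 25 tested members, 6 log2 fold changes were positive and 19 negative, with a median of −0.22 against −0.05 over all genes tested. Without the second SOD1-Veh library the median was −0.02, at a minimum of 400 genes per barcode it was −0.01, and in the Ctsd-led cluster described below it was −0.69. The alternatives ranged between these last values. Both SOD1-Nec libraries lay below both SOD1-Veh libraries for 10 members, Lgmn, Tpp1, Atp6ap1, Lamp1, Atp6v1g1, Laptm5, Man2b1, Cd68, Atp6v1a and Hexa, where 22.2% of all genes did so. They lay above for 3, where 20.2% did.

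**Figure D4:**
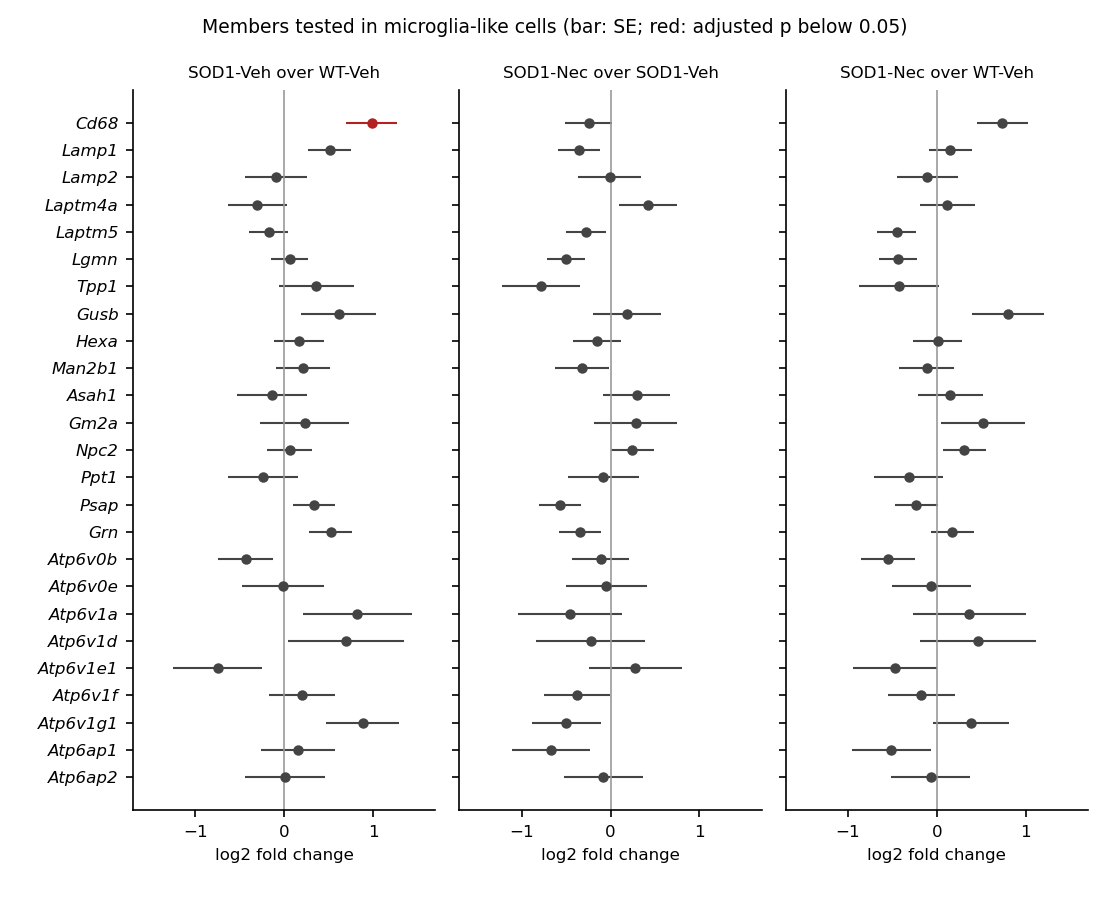
Log2 fold change (horizontal axis) of the 25 members tested in microglia (rows, by role) in the 3 comparisons (panels), with bars of 1 SE. Cd68 in SOD1-Veh over WT-Veh, at 0.98, is the only red point, which marks an adjusted p below 0.05, and 19 of the 25 points lie left of 0 in SOD1-Nec over SOD1-Veh.

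SOD1-Nec was also set against WT-Veh. The 3 comparisons share libraries, so their values are not independent. In microglia edgeR called 0 of 25 members, where 6.25% of all genes were called, with 3 members at an unadjusted p below 0.05. DESeq2 called 0, with 1 at an unadjusted p below 0.05. Cd68 had 531 and 563 CPM in SOD1-Nec and 321 and 333 CPM in WT-Veh, without overlap (log2 fold change 0.74 ± 0.29, adjusted p 0.101 by edgeR). Laptm5 had 1308 and 1536 CPM in SOD1-Nec and 2095 and 1809 CPM in WT-Veh (−0.45 ± 0.22, adjusted p 0.221), and Lgmn had 1678 and 1844 CPM in SOD1-Nec and 2520 and 2264 CPM in WT-Veh (−0.44 ± 0.21, adjusted p 0.228). For both, the SOD1-Nec libraries were the lower pair.

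Among the enzymes, Gusb had 222 and 297 CPM in SOD1-Nec and 193 and 111 CPM in WT-Veh (0.80 ± 0.41, adjusted p 0.253 by edgeR). Hexa differed little, with 494 and 492 CPM in SOD1-Nec and 488 CPM in both WT-Veh libraries. Atp6v0b had 346 and 338 CPM in SOD1-Nec and 476 and 522 CPM in WT-Veh (−0.55 ± 0.31, adjusted p 0.304 by edgeR). Lamp1 had 642 and 912 CPM in SOD1-Nec and 707 and 699 CPM in WT-Veh, which overlap. Of the 25 members, 12 had a positive and 13 a negative log2 fold change, with a median of −0.06 against 0.01 over all genes. That median was 0.15 without the first SOD1-Veh library, 0.14 without the first WT-Veh library, 0.20 at a minimum of 400 genes per barcode and −0.36 in the Ctsd-led cluster described below, and these last values are the ends of its range over the alternatives. Both SOD1-Nec libraries lay above both WT-Veh libraries for 4 members and below them for 6, where 25.1% and 24.7% of all genes did so.

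Microglia comprised 2 clusters, described here after their values were seen. Of 636 cells, 331 were in a cluster led by Ctsd and Trem2 (median 431 UMIs per cell) and 305 in a cluster led by Ccl3 and Ccl4 (median 898). The Ctsd-led cluster held 71.7% of SOD1-Nec microglia, 38.3% of SOD1-Veh microglia and 35.4% of WT-Veh microglia. Different clusters thus held most of the class in SOD1-Nec and in the other groups. The clusters also differed in RNA of red cells: haemoglobin took 7.46 and 5.73% of UMIs in SOD1-Nec, 0.361 and 0.648% in SOD1-Veh and 2.64 and 6.30% in WT-Veh in the Ctsd-led cluster. In the Ccl3-led cluster it took 1.72 and 0.221% in SOD1-Nec, 0.249 and 0.487% in SOD1-Veh and 0.524 and 0.419% in WT-Veh.

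Differences between the clusters were not tested. In the Ccl3-led cluster Cd68 had 7.35 UMIs per 10,000 in SOD1-Nec (exact Poisson 95% interval 5.65 to 9.41), 6.59 in SOD1-Veh (5.22 to 8.21) and 3.37 in WT-Veh (2.45 to 4.53). In the Ctsd-led cluster it had 3.63 in SOD1-Nec (2.53 to 5.05), 6.49 in SOD1-Veh (4.11 to 9.74) and 3.12 in WT-Veh (1.56 to 5.58). These intervals cover counting error only. Fitted alone, the Ccl3-led cluster gave Cd68 a log2 fold change of 0.98 ± 0.32 between SOD1-Veh and WT-Veh (adjusted p 0.190 by edgeR) and 1.08 ± 0.33 between SOD1-Nec and WT-Veh (adjusted p 0.0722). Between SOD1-Nec and SOD1-Veh its value there was 0.10, and in the Ctsd-led cluster alone it had too few counts to be tested.

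Lgmn had overlapping intervals in the Ccl3-led cluster, with 21.2 UMIs per 10,000 in SOD1-Nec (18.3 to 24.6), 24.6 in SOD1-Veh (21.9 to 27.6) and 23.8 in WT-Veh (21.2 to 26.6). In the Ctsd-led cluster it had 13.9 in SOD1-Nec (11.7 to 16.5), 26.2 in SOD1-Veh (21.2 to 32.1) and 25.5 in WT-Veh (20.5 to 31.4). Its log2 fold change between SOD1-Nec and SOD1-Veh was −0.90 ± 0.31 in the Ctsd-led cluster alone (adjusted p 0.167 by edgeR) and −0.29 in the Ccl3-led cluster alone. Psap was at 9.34 in SOD1-Nec, 16.6 in SOD1-Veh and 11.9 in WT-Veh in the Ctsd-led cluster, and at 11.2 in SOD1-Nec, 15.9 in SOD1-Veh and 12.6 in WT-Veh in the Ccl3-led cluster. Grn was at 7.06 in SOD1-Nec, 12.1 in SOD1-Veh and 7.37 in WT-Veh in the Ctsd-led cluster, and at 11 in SOD1-Nec, 11.3 in SOD1-Veh and 8.36 in WT-Veh in the Ccl3-led cluster. The part of the haemoglobin RNA and of the lower depth of the Ctsd-led cells in these values was not tested.

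**Figure D5:**
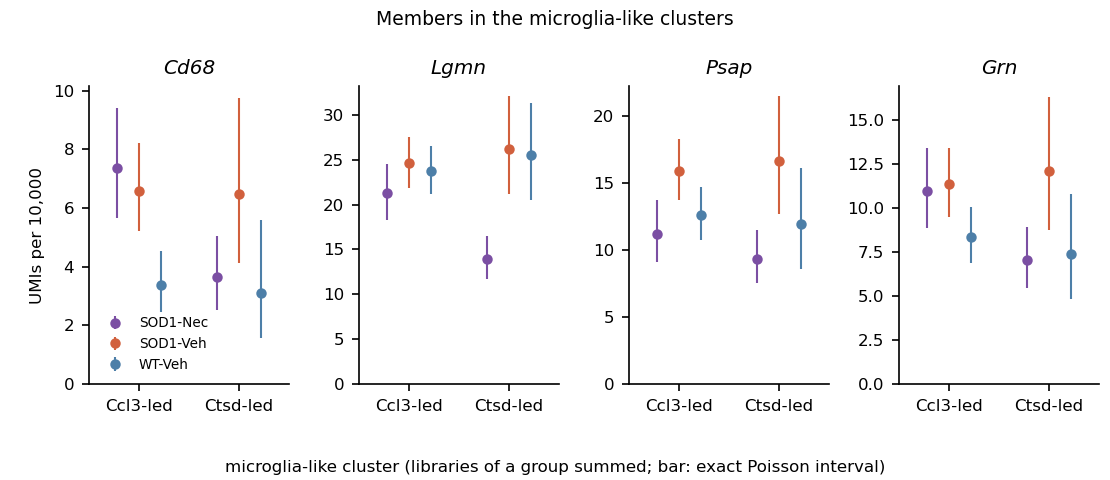
UMIs per 10,000 (vertical axis, 1 scale per gene) of Cd68, Lgmn, Psap and Grn in the Ccl3-led and the Ctsd-led microglial cluster, with the 2 libraries of each group summed and bars of the exact Poisson 95% interval (counting error only). Lgmn in SOD1-Nec lies at 13.9 in the Ctsd-led cluster and at 21.2 in the Ccl3-led cluster.

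Monocytes had 15 members with enough counts, and edgeR called 0 of them in each comparison, where 1.82% of all genes were called in SOD1-Veh against WT-Veh, 2.31% in SOD1-Nec against SOD1-Veh and 0.122% in SOD1-Nec against WT-Veh. Members at an unadjusted p below 0.05 by edgeR numbered 0, 3 and 0 in that order, and DESeq2 called 0 in each (0, 1 and 0 at an unadjusted p below 0.05). All 3 had negative log2 fold changes. Atp6v1e1 had 202 and 280 CPM in SOD1-Nec and 558 and 520 CPM in SOD1-Veh (−1.17 ± 0.48, adjusted p 0.307 by edgeR). Lamp1 had 513 and 559 CPM in SOD1-Nec and 877 and 989 CPM in SOD1-Veh (−0.79 ± 0.36, adjusted p 0.387 by edgeR). Psap had 1539 and 1376 CPM in SOD1-Nec and 2112 and 2289 CPM in SOD1-Veh (−0.59 ± 0.27, adjusted p 0.387 by edgeR). The SOD1-Nec pair lay below the SOD1-Veh pair for all 3, as it did for 6 of the 15 members and for 20.7% of all genes, and above it for 3, as for 22.9% of all genes. Cd68 in monocytes had 238 and 43 CPM in SOD1-Nec, 159 and 260 CPM in SOD1-Veh and 274 and 259 CPM in WT-Veh.

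In neutrophils, B cells and erythroid cells edgeR and DESeq2 each called 0 members in every comparison. Neutrophils had 11 members tested, where 0.118% of all genes were called in SOD1-Veh against WT-Veh, 0.0% in SOD1-Nec against SOD1-Veh and 0.118% in SOD1-Nec against WT-Veh. The 1 neutrophil member at an unadjusted p below 0.05 by edgeR was Atp6v1g1 in SOD1-Nec against WT-Veh. It had 166 and 51 CPM in SOD1-Nec and 363 and 210 CPM in WT-Veh, from 9 and 4 against 32 and 12 UMIs. Its log2 fold change was −1.54 ± 0.55 (adjusted p 0.203 by edgeR). DESeq2 also had 1 member at an unadjusted p below 0.05 in that comparison. The SOD1-Nec libraries were the lower pair.

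B cells had 7 members tested, where 0.195% of all genes were called in SOD1-Veh against WT-Veh, 0.487% in SOD1-Nec against SOD1-Veh and 0.292% in SOD1-Nec against WT-Veh. Atp6v1f had 202 and 159 CPM in SOD1-Veh and 369 and 544 CPM in WT-Veh (−1.30 ± 0.54, adjusted p 0.472 by edgeR). Lamp1 had 277 and 257 CPM in SOD1-Nec and 112 and 124 CPM in SOD1-Veh (1.15 ± 0.50, adjusted p 0.371 by edgeR). These were the members of B cells at an unadjusted p below 0.05 by edgeR, and DESeq2 had 0.

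Erythroid cells had enough counts for only 2 members, Lamp1 and Atp6v1e1, where 0.224% of all genes were called in SOD1-Veh against WT-Veh, 7.83% in SOD1-Nec against SOD1-Veh and 13.6% in SOD1-Nec against WT-Veh. Atp6v1e1 had 149 and 124 CPM in SOD1-Nec and 231 and 347 CPM in SOD1-Veh (−1.07 ± 0.46, adjusted p 0.138 by edgeR). Lamp1 had 60 and 80 CPM in SOD1-Nec and 233 and 117 CPM in WT-Veh (−1.29 ± 0.58, adjusted p 0.146 by edgeR). Both had an unadjusted p below 0.05 by edgeR in these comparisons, and DESeq2 had 0 at that level.

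Summed over all retained cells, 35 members were tested and edgeR called 0 in each comparison. Of all genes, 0.842% were called in SOD1-Veh against WT-Veh, 0.575% in SOD1-Nec against SOD1-Veh and 0.0401% in SOD1-Nec against WT-Veh. Cd68 had 164 and 120 CPM in SOD1-Veh and 75 and 86 CPM in WT-Veh (0.82 ± 0.31, adjusted p 0.339 by edgeR), and Grn had 308 and 281 CPM in SOD1-Veh and 204 and 181 CPM in WT-Veh (0.61 ± 0.27, adjusted p 0.452 by edgeR). Both SOD1-Veh libraries were higher for each. Atp6v1g1 had 106 and 157 CPM in SOD1-Nec and 208 and 258 CPM in SOD1-Veh (−0.82 ± 0.32, adjusted p 0.602 by edgeR). These 3 were the members with an unadjusted p below 0.05 by edgeR in any of the 3 comparisons. Skeletal muscle cells, where Atp6v1g1 was more concentrated than in microglia, were only in SOD1-Veh, with 16 and 47 cells. Over 19 alternatives, among them a fit without these cells, the log2 fold change of Atp6v1g1 between SOD1-Nec and SOD1-Veh lay between −1.16 and −0.55. DESeq2 called 0 in each comparison, with 0, 1 and 0 at an unadjusted p below 0.05. Between SOD1-Nec and SOD1-Veh, both SOD1-Nec libraries were lower for 15 members, where 20.5% of all genes were. These sums mix a change within cells with a change in the share of each class, and the part of each was not tested. Microglia made up 18.7 and 19.7% of retained cells in SOD1-Nec, 21.3 and 18.1% in SOD1-Veh and 19.7 and 17.3% in WT-Veh.

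Of 79 other lysosomal genes, listed with earlier results of these data known, 23 were tested in microglia. Between SOD1-Nec and WT-Veh 2 of them rose and 0 fell, where 6.25% of all genes were called. Cd63, a tetraspanin of late endosomes and lysosomes, had 1000 and 1219 CPM in SOD1-Nec and 206 and 344 CPM in WT-Veh, with a log2 fold change of 1.99 ± 0.28 (adjusted p 4.6e-08 by edgeR). Ctsb, the cysteine protease cathepsin B, had 2962 and 3104 CPM in SOD1-Nec and 1504 and 1654 CPM in WT-Veh, with a log2 fold change of 0.94 ± 0.21 (adjusted p 0.0017 by edgeR). Between SOD1-Nec and SOD1-Veh, edgeR and DESeq2 called 0 of the 23, with 2 at an unadjusted p below 0.05 by edgeR, and Cd63 differed by −0.15 ± 0.23 and Ctsb by −0.01 ± 0.21. In SOD1-Veh against WT-Veh the same 2 genes were called, where 2.26% of all genes were. The median over the 23 was 0.01 in SOD1-Veh against WT-Veh, −0.15 in SOD1-Nec against SOD1-Veh and 0.01 in SOD1-Nec against WT-Veh.

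Some member values are uncertain because gene models overlap and no source used here gives the strand setting of the counting. In GENCODE, exons of Lamp1 overlap those of Grtp1, exons of Ppt1 those of Cap1, and exons of Npc1 those of Rmc1, so reads of these pairs may not have been told apart.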

How the data were processed

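UMI counts per gene and barcode were deposited by the authors as 1 table per library, with no normalization. Reads were aligned to mm9 per the submitters' processing notes, and no source used here names the aligner or annotation. Tables numbered 1 list 18169 genes and those numbered 2 list 18650, of which 17042 shared by all were used. Per the labels' protocols, cords were digested enzymatically, cleared of myelin and passed over a density gradient before Drop-seq, which limits which cells were captured.

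Barcodes with at least 200 genes and at most 20% mitochondrial UMIs were kept, and doublets marked by Scrublet within each library were removed. Cells were clustered with scanpy 1.11.5 and leidenalg 0.10.2 (2000 variable genes, 30 principal components, 15 neighbours, resolution 1) and named by at least 3 markers among the 25 leading genes. Counts were summed per library and class, for classes with at least 20 cells in each library, and tested over all genes with edgeR 4.0.16 (quasi-likelihood, TMM, filterByExpr, 1 fit of 6 libraries by group, Benjamini-Hochberg at 0.05). Errors are the SE from the log2 fold change and its F statistic. DESeq2 1.42.0, other scalings, filters, cell limits and clusterings, a replicate block and leaving out each library were alternatives. The code was tested on simulated counts.

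The members and gene lists were chosen with earlier results of these data known. Microglial values are given for members called or with at least 60 UMIs there, and elsewhere for members with an unadjusted p below 0.05, with Cd68 in monocytes and the 4 genes shown by cluster chosen after their values were seen. Promoter windows came from RefSeq (GRCm38.p6) and were not found for Npc1, Asah1, Atp6ap1l, Atp6v0a2, Atp6v0d2, Atp6v1b2, Atp6v1c1, Atp6v1g1 and Atp6v1h. The labels do not say that same-numbered libraries share animals or days, so the libraries were not treated as pairs.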

Additional observations from a re-analysis of the deposited data

Results flagged for a closer look

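Some members moved in opposite directions in 2 classes under the same contrast, in every library of both classes, and in none of these cases was the difference tested. In SOD1-Veh against WT-Veh, Atp6v1e1 had log2 fold changes of 0.65 in erythroid cells and 0.53 in monocytes, and −0.75 in microglia. In the same contrast Lamp1 had 0.51 in microglia and 0.37 in monocytes, and −1.04 in B cells. In SOD1-Nec against SOD1-Veh, Lamp1 had 1.15 in B cells, −1.09 in erythroid cells, −0.36 in microglia and −0.79 in monocytes. In SOD1-Nec against WT-Veh, Cd68 had 0.74 in microglia and −0.86 in monocytes. None of these values passed the test in its own class. In microglia alone, both SOD1-Veh libraries lay above both WT-Veh libraries for 21.1% of all genes and below for 20.3%. The share of genes that do so oppositely in 2 classes was not counted. Several cases rest on few UMIs: Lamp1 had 5 and 7 in SOD1-Veh B cells and 4 and 9 in SOD1-Nec erythroid cells. Cd68 had 13 and 2 in SOD1-Nec monocytes, and Atp6v1e1 had 6 and 11 in SOD1-Veh microglia.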

How the results depend on the processing

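The count of members called in microglia between SOD1-Veh and WT-Veh was 1 (Cd68), and it was 0 with DESeq2, RLE factors, scaling without haemoglobin, mitochondrial and Sod1 UMIs, no filter on low counts, a replicate block, a minimum of 400 genes, clustering without lysosomal genes and each microglial cluster alone (an alternative chosen after seeing the data). It was 0 to 0 over the 6 fits that left out 1 library. Cd68 stayed called at a minimum of 100 genes (adjusted p 0.0239 by edgeR), up to 40% mitochondrial UMIs (0.0263), with doublets kept (0.0499) and at Leiden resolution 0.5 (0.0437). With RLE factors its adjusted p was 0.0522, with clustering without lysosomal genes 0.0573. Its log2 fold change lay between 0.74 and 1.07 in all settings that tested it. Between SOD1-Nec and SOD1-Veh the sign of Cd68 turned from −0.24 to 0.43 at a minimum of 400 genes and to 0.10 in the Ccl3-led cluster alone, and the cause was not tested. The other 8 counts, 0 each, were 0 in every setting.

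Same-numbered libraries share a number and the gene list of their tables, and the labels name no other link. With the replicate block Cd68 had an adjusted p of 0.0614 by edgeR and 0 members were called. Deviations of same-numbered microglial libraries had correlations of −0.02, −0.02 and −0.03 between groups. Over all retained cells, which have more counts, they were 0.18 between SOD1-Nec and SOD1-Veh, −0.27 between SOD1-Nec and WT-Veh and −0.20 between SOD1-Veh and WT-Veh. Of 369 values of 21 single-gene results under alternatives, 353 kept direction and side of the threshold, 14 lost the threshold and 2 reversed. Only Cd68 in microglia between SOD1-Veh and WT-Veh had passed the threshold, so no other result could lose it. All 14 losses were of that call, among the 18 alternatives that tested it. Depth limits the members with few counts, and 2 libraries per group limit all tests.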

Other observations

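Member RNA was also present in barcodes outside the limits on cells. Barcodes with at least 200 genes and over 20% mitochondrial UMIs held 30.6 and 34.5 member UMIs per 10,000 in SOD1-Nec, 34.4 and 32.7 in SOD1-Veh and 33.1 and 32.8 in WT-Veh. With mitochondrial UMIs left out of the total these were 44.1 to 50.6 per 10,000 over the 6 libraries. Barcodes with under 100 genes held 6.54 and 4.64 in SOD1-Nec, 13.6 and 16.6 in SOD1-Veh and 10.7 and 12.5 in WT-Veh. In these barcodes the SOD1-Nec libraries were the lowest pair. Haemoglobin was not left out of these totals, and its part in the values was not tested.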
